A study of Mus musculus with 10 samples.

Results

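The D and E cyclins with the G1 kinases are 8 genes, defined by name: the D cyclins Ccnd1, Ccnd2 and Ccnd3, the E cyclins Ccne1 and Ccne2, and the kinases Cdk2, Cdk4 and Cdk6. They are 8 of the 48795 genes listed, and 8 of 8 were among the 12859 genes that passed the filter on low counts. RNA was sequenced in 10 libraries of cells cultured from the subependymal zone (SEZ, the neural stem cell niche of the adult brain) of 10-week-old mice. WT_PRO (3 libraries) and p27KO_PRO (2 libraries) were neurospheres, floating stem and progenitor cell colonies, grown for 3 days in vitro (DIV) with EGF at 20 ng/ml and FGF at 10 ng/ml. The 3 days are those of the study's methods, whereas its results text gives a longer growth time. WT_DIFF (3 libraries) and p27KO_DIFF (2 libraries) were cells of such cultures at 2 + 1 DIV, seeded on Matrigel at 40000 cells/cm2 for 2 days with FGF and harvested 24 h after mitogen withdrawal in 2% FBS. The stages thus differ in mitogens, in attachment and in FBS, which cannot be told apart in any comparison of stages below. WT cells were wild type, and p27KO cells came from Cdkn1b mutant mice on a C57BL/6J background; Cdkn1b encodes the CDK inhibitor p27.

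D cyclins are the cyclins that growth factors induce: they bind Cdk4 or Cdk6, and the complexes begin to phosphorylate Rb and its relatives, which releases E2F transcription factors. E2F then drives the E cyclins, which bind Cdk2, complete Rb phosphorylation and start DNA replication. p27 binds both kinds of complex, blocks cyclin E with Cdk2, and is held by cyclin D complexes in cycling cells. Ccnd2 is known for its part in neural progenitor division and in adult neurogenesis, and Ccnd1 for its short-lived, mitogen-dependent transcript.

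Library totals ran from 19190068 to 25291674 estimated counts. Values below are CPM, a gene's count scaled to the total of its library, unless another scale is named. The labels do not say whether replicates came from separate animals, so the p-values measure the spread between these libraries. Cdkn1b was at 103 to 112 CPM in WT_PRO, 205 to 209 CPM in WT_DIFF, 90.7 to 114 CPM in p27KO_PRO and 137 to 140 CPM in p27KO_DIFF. The part of the gene that the mutant lacks is not given in the sources used here, so this whole-gene count does not check the genotype. One text field also describes the p27KO samples as WT while their titles and genotype field say p27KO, so these are the libraries labelled p27KO. Xist, transcribed from the inactive X chromosome, was at 2258 CPM or more in each library labelled p27KO and at 2.57 CPM or less in each WT library, and 4 Y-linked genes summed to 189 to 533 CPM in WT and to 0.585 CPM or less in p27KO. Sex and genotype therefore cannot be told apart in any comparison of p27KO with WT below. Markers of neural stem and progenitor cells summed to between 5348 and 8233 CPM in every library. Microglial markers summed to 0.456 CPM at most and fibroblast markers to 1.42 CPM at most. Oligodendrocyte lineage markers summed to between 76.1 and 174 CPM.

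Between neurospheres and 2 + 1 DIV, 7 of the 8 genes fell in WT cells and the same 7 fell in p27KO cells. Ccnd1 fell by far the most, Ccne1 and Ccne2 followed, Cdk2 was intermediate, and Ccnd2, Ccnd3 and Cdk4 fell least. Cdk6 did not pass the test in either genotype. Across all genes tested, 33.9% were called down and 33.5% up in WT, and 30.2% were called down and 27.5% up in p27KO. The median log2 fold change of the 8 genes was -1.48 in WT and -1.41 in p27KO, beside medians of 0.00 and -0.03 over all genes tested. The 5 astrocyte markers were Gfap, Aqp4, Aldoc, Slc1a2 and S100b. They summed to 636 to 893 CPM in neurospheres and to 1955 to 2419 CPM at 2 + 1 DIV. Of these, mean S100b went the other way, from 19.1 CPM in WT_PRO to 12.4 CPM in WT_DIFF. The 4 ependymal markers summed to 14.7 to 20.2 CPM and 86.1 to 104 CPM. Most of that was Foxj1, with means of 16.7 CPM in WT_PRO and 90.9 CPM in WT_DIFF. Rsph1 was at 0.431 and 1.61 CPM, Ccdc153 at 0.188 and 0.235 CPM and Tmem212 at 0 in both. Markers of neuroblasts and neurons summed to 1224 to 1845 CPM in neurospheres and 1464 to 2126 CPM at 2 + 1 DIV. Map2 made up most of this (means 1316 CPM in WT_PRO and 1531 CPM in WT_DIFF), while Dcx went from 1.43 to 35.2 CPM. Endothelial and mural markers, with Cldn5 and Cdh5 at 0 in all libraries, summed to 1.28 CPM at most and to 2.75 to 10.4 CPM. Of these Pdgfrb had WT means of 0.176 and 2.98 CPM, Rgs5 0.385 and 0.426 CPM and Pecam1 0.177 and 0.109 CPM. The part of these differences in the stage results was not tested.

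Ccnd1 (ENSMUSG00000070348), the first of the D cyclins listed, lies at chr7:144929931-144939925 on the minus strand of GRCm38. In WT_PRO its level was 2601 CPM in replicate 1, 2339.9 CPM in replicate 2 and 2210.1 CPM in replicate 3, and in WT_DIFF it was 51.0, 31.2 and 39.9 CPM in the same order. In p27KO_PRO it was 2075 and 2238 CPM, and in p27KO_DIFF 36.5 and 33.7 CPM. Every library at 2 + 1 DIV was far below every neurosphere library, and the genotypes overlapped at both stages. The log2 fold change from neurospheres to 2 + 1 DIV was -5.89 (SE 0.18, edgeR quasi-likelihood test, adjusted p = 3.94e-08) in WT, a 59.2-fold lower level, and -5.97 (SE 0.23, adjusted p = 5.05e-07) in p27KO. Counted from the most negative value, it ranked 3 of 12859 genes in WT and 2 of 12859 in p27KO. LTO1, on the opposite strand, shares 1100 annotated exon bases with Ccnd1 and was at 11.2 to 15.6 CPM in all libraries. The strand setting of the counting is not given in the sources used here, so reads of the overlap cannot be assigned, here or for the overlapping genes named below.

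Ccnd2 (ENSMUSG00000000184, chr6:127125162-127152193, minus strand), the D cyclin of dividing neural progenitors, was at 2326, 2071 and 2003 CPM in WT_PRO and at 667, 959.9 and 1150.4 CPM in WT_DIFF. It was at 1726 and 1786 CPM in p27KO_PRO and at 1020.3 and 960.4 CPM in p27KO_DIFF. The stages did not overlap in either genotype, and replicate 1 of WT_DIFF lay below the other 4 libraries at 2 + 1 DIV. The log2 fold change was -1.21 (SE 0.17, edgeR, adjusted p = 1.47e-04) in WT and -0.85 (SE 0.21, adjusted p = 0.00589) in p27KO. Ccnd3 (ENSMUSG00000034165, chr17:47505051-47599691, plus strand), the third D cyclin, was at 47.8 to 62.4 CPM in WT_PRO, 25.9 to 29.0 CPM in WT_DIFF, 42.5 and 48.0 CPM in p27KO_PRO and 23.9 and 25.9 CPM in p27KO_DIFF. Its log2 fold change was -0.98 (SE 0.11, edgeR, adjusted p = 3.54e-05) in WT and -0.89 (SE 0.14, adjusted p = 4.19e-04) in p27KO. Ccnd3 shares 361 exon bases with Bysl on the opposite strand, which was at 55.3 to 59.6 CPM in WT_PRO and 14.9 to 19.2 CPM in WT_DIFF, and so was itself lower at 2 + 1 DIV.

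**Figure D1:**
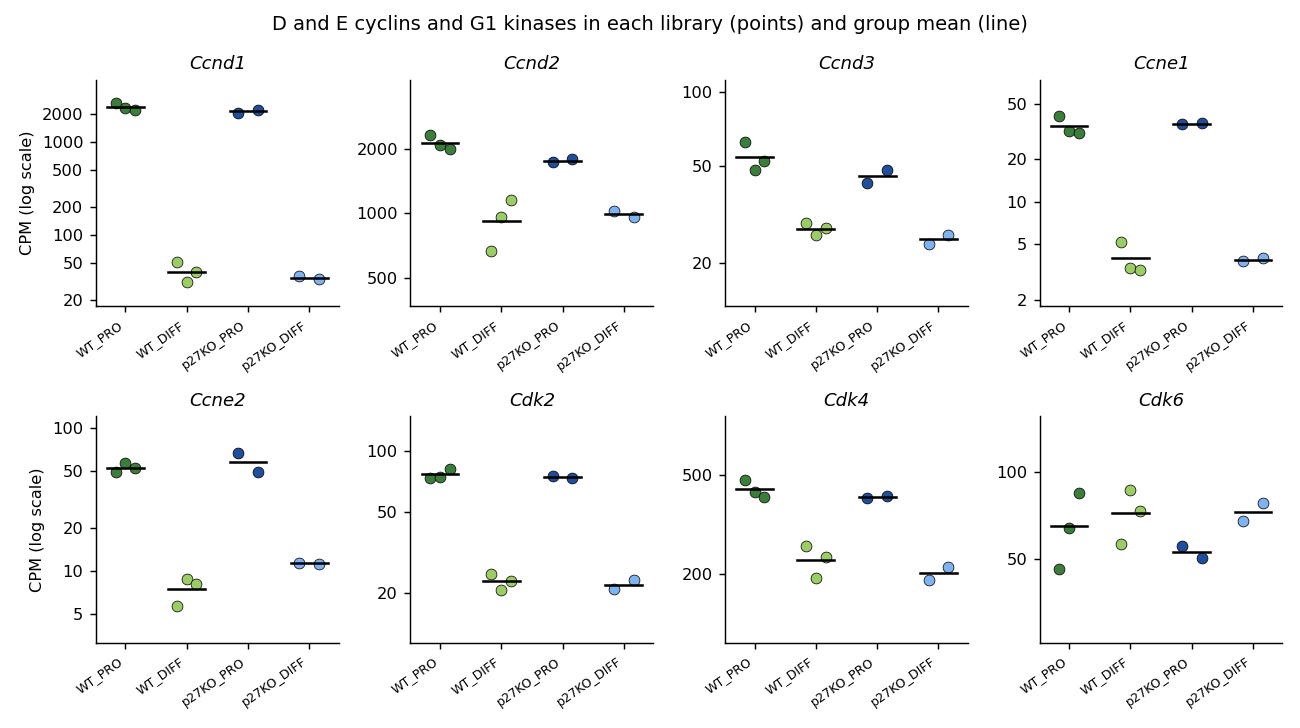
Level of each of the 8 genes in each library. The vertical axis is CPM on a log scale, with its own range for each gene; points are libraries, coloured by group, and lines are group means. Ccnd1 drops from above 2000 CPM to 51.0 CPM or less, while the Cdk6 points of WT_PRO and WT_DIFF overlap.

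Because the D cyclins fell by unequal amounts, their proportions changed. Counts were divided by the length of the longest annotated transcript with a coding sequence, so that levels of different genes could be set side by side. On this scale Ccnd1 made up 63.7, 64.1 and 63.4% of D cyclin transcripts in WT_PRO and 65.5 and 66.2% in p27KO_PRO. At 2 + 1 DIV its share was 10.3, 4.85 and 5.18% in WT_DIFF and 5.35 and 5.21% in p27KO_DIFF. The share of Ccnd2 went the other way, from 33.7% ± 0.212 (SD, n = 3) to 85.3% ± 5.10 in WT and from 31.7% ± 0.655 (SD, n = 2) to 88.1% ± 0.511 in p27KO. The share of Ccnd3 was 2.56% ± 0.207 in WT_PRO and 7.95% ± 2.10 in WT_DIFF. No library of one stage overlapped a library of the other for any of these 3 shares. The change in share came with a smaller sum: the 3 D cyclins together were at 999.99 ± 83.1 CPM per kb in WT_PRO, 170.2 ± 36.4 in WT_DIFF, 875 ± 39.3 in p27KO_PRO and 178 ± 6.56 in p27KO_DIFF. The rise of Ccnd2 was thus one of proportion, since its own level fell. The ratio of Ccnd1 to Ccnd2 counts, which needs no length, was 1.10 to 1.13 in WT_PRO and 1.20 to 1.25 in p27KO_PRO, and 0.0326 to 0.0764 in WT_DIFF and 0.0351 to 0.0357 in p27KO_DIFF.

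**Figure D2:**
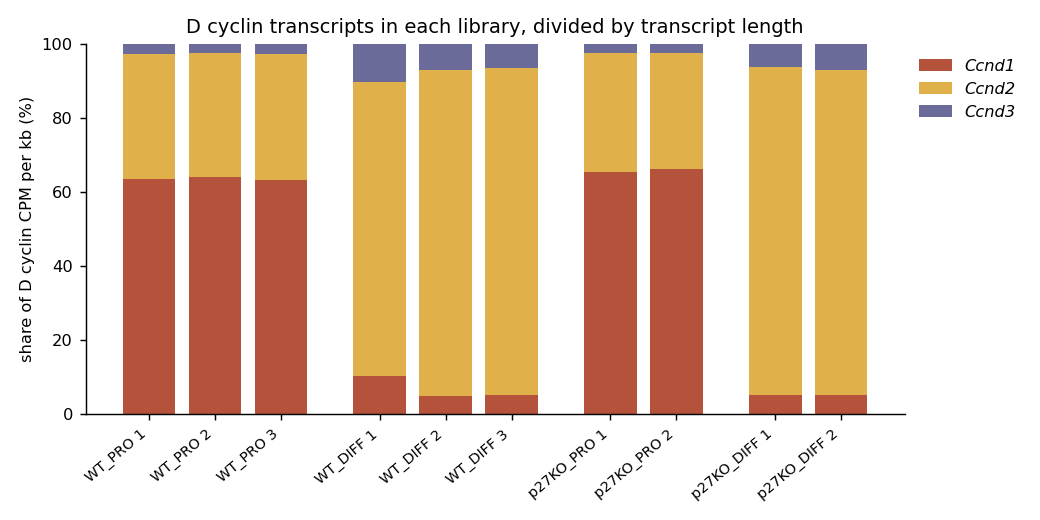
Share of each D cyclin among the 3 D cyclins in each library, in percent of their summed CPM per kb of transcript; each bar is 1 library and adds up to the whole. Ccnd1 holds 63.4 to 66.2% in the 5 neurosphere libraries and 4.85 to 10.3% in the 5 libraries at 2 + 1 DIV.

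Ccne1 (ENSMUSG00000002068, chr7:38097984-38107534, minus strand), an activator of Cdk2 at the start of S phase, was at 41.2, 31.8 and 30.8 CPM in WT_PRO and at 5.19, 3.36 and 3.24 CPM in WT_DIFF. It was at 35.6 and 36.3 CPM in p27KO_PRO and at 3.77 and 3.96 CPM in p27KO_DIFF. The stages lay far apart and the genotypes overlapped at both. Its log2 fold change was -3.16 (SE 0.19, edgeR, adjusted p = 6.26e-07) in WT and -3.24 (SE 0.23, adjusted p = 5.23e-06) in p27KO. Each value at 2 + 1 DIV rests on 81 to 102 counts.

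Ccne2 (ENSMUSG00000028212, chr4:11191351-11204779, plus strand), the second E cyclin, was at 49.0, 56.8 and 52.0 CPM in WT_PRO and at 5.65, 8.75 and 8.11 CPM in WT_DIFF. It was at 66.5 and 49.0 CPM in p27KO_PRO and at 11.4 and 11.1 CPM in p27KO_DIFF. The log2 fold change was -2.81 (SE 0.17, edgeR, adjusted p = 6.75e-07) in WT and -2.38 (SE 0.21, adjusted p = 1.33e-05) in p27KO. Ints8, which shares 609 exon bases with Ccne2 on the opposite strand, was at 57.7 to 69.2 CPM in all libraries, above Ccne2 in every library at 2 + 1 DIV. Per kb of transcript the 2 E cyclins were level in neurospheres, where Ccne1 held 49.5% ± 5.49 (SD, n = 3) of their sum in WT_PRO and 48.7% ± 5.75 (n = 2) in p27KO_PRO. At 2 + 1 DIV its share was 58.0, 36.6 and 37.5% in WT_DIFF and 33.2 and 34.9% in p27KO_DIFF, so that replicate 1 of WT_DIFF alone lay above the neurosphere range. The summed E cyclins went from 34.8 ± 2.08 to 4.46 ± 0.136 CPM per kb in WT and from 37.2 ± 3.86 to 5.67 ± 0.00377 in p27KO.

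Cdk2 (ENSMUSG00000025358, chr10:128697939-128705031, minus strand), the partner of E cyclins, was at 73.2, 74.6 and 81.6 CPM in WT_PRO and at 24.9, 20.7 and 23.1 CPM in WT_DIFF, with 75.5 and 73.1 CPM in p27KO_PRO and 21.0 and 23.2 CPM in p27KO_DIFF. The stages did not overlap and the genotypes did, and its log2 fold change was -1.75 (SE 0.09, edgeR, adjusted p = 1.93e-07) in WT and -1.78 (SE 0.11, adjusted p = 2.18e-06) in p27KO. Cdk4 (ENSMUSG00000006728, chr10:127063534-127067920, plus strand), a partner of D cyclins, was at 480.4, 428 and 408 CPM in WT_PRO and at 258, 192 and 233 CPM in WT_DIFF, with 403 and 413 CPM in p27KO_PRO and 189 and 213 CPM in p27KO_DIFF. Its log2 fold change was -0.96 (SE 0.11, edgeR, adjusted p = 3.62e-05) in WT and -1.05 (SE 0.13, adjusted p = 1.33e-04) in p27KO. Tspan31, which shares 641 exon bases with Cdk4 on the opposite strand, was at 65.6 to 88.1 CPM in all libraries.

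Cdk6 (ENSMUSG00000040274, chr5:3341485-3531008, plus strand), the other partner of D cyclins, was at 46.2, 63.8 and 84.3 CPM in WT_PRO and at 56.4, 86.2 and 73.4 CPM in WT_DIFF. The WT stages overlapped over most of their range, and the log2 fold change of 0.15 (SE 0.22, edgeR, adjusted p = 0.569) had a 95% interval of -0.34 to 0.64. A fall as large as that of Cdk4 lies outside that interval. In p27KO the level was 55.2 and 50.5 CPM in neurospheres and 67.4 and 78.0 CPM at 2 + 1 DIV, without overlap, with a log2 fold change of 0.43 (SE 0.27, edgeR, adjusted p = 0.191). Fitted on the 4 p27KO libraries alone, this value passed the test (0.47, edgeR, adjusted p = 0.0172). Cdk4 held less of the kinase pair at 2 + 1 DIV: per kb of transcript its share of Cdk4 plus Cdk6 was 96.4 to 98.3% in WT_PRO and 92.6 to 96.3% in WT_DIFF, and 97.6 to 97.9% in p27KO_PRO and 93.9 to 94.0% in p27KO_DIFF. Cdk4 remained the main D cyclin kinase transcript in every library.

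**Figure D3:**
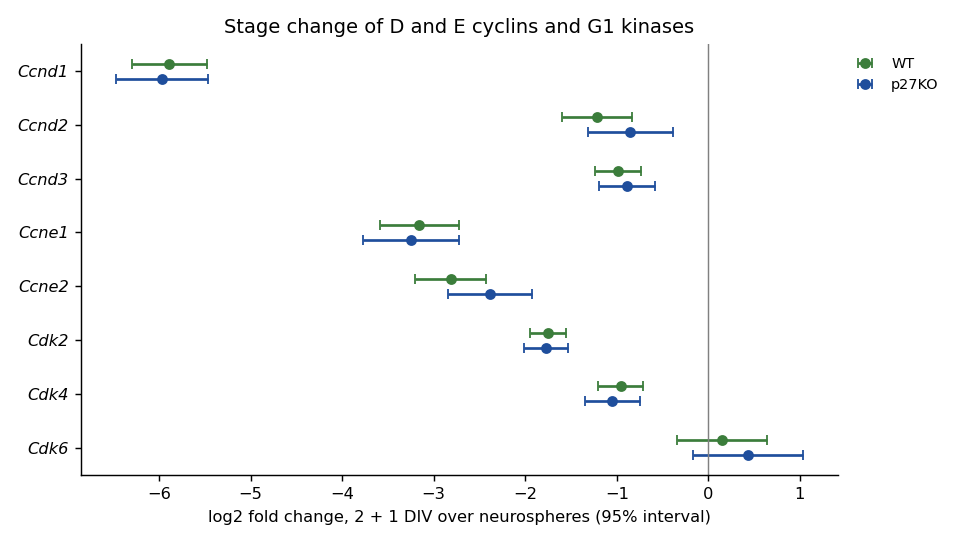
Log2 fold change of each gene from neurospheres to 2 + 1 DIV in WT (green) and p27KO (blue), with 95% intervals from the edgeR fit; the grey line marks no change. Ccnd1 lies near -6 in both genotypes, and the intervals of Cdk6 cross the line.

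Per kb of transcript the order of the 8 genes in WT_PRO was Ccnd1 (637 ± 53.3 CPM per kb, SD, n = 3), Ccnd2 (337 ± 26.9), Cdk4 (214 ± 18.3), Cdk2 (31.8 ± 1.87), Ccnd3 (25.6 ± 3.55), Ccne2 (17.5 ± 1.31), Ccne1 (17.3 ± 2.86) and Cdk6 (5.62 ± 1.65). Of these neighbours the replicates of Ccne2 and Ccne1 overlapped, and the others did not. In WT_DIFF Ccnd2 (146 ± 38.4 CPM per kb) and Cdk4 (111 ± 16.2) led and overlapped each other, followed by Ccnd3 (13.0 ± 0.729), Ccnd1 (10.9 ± 2.65) and Cdk2 (9.51 ± 0.886), each overlapping the next. Cdk6 (6.25 ± 1.30) stood apart from the genes above and below it, and Ccne2 (2.49 ± 0.544) and Ccne1 (1.97 ± 0.547) came last and overlapped. The order of the 8 genes in p27KO was the same as in WT at each stage. In p27KO_DIFF, however, Ccnd2 and Cdk4 were separate from each other, as were Ccnd3 and Ccnd1, and Ccne2 and Ccne1, and in p27KO_PRO Ccnd3 and Ccne2 overlapped. The place of Cdk6, whose annotated transcript is 11525 bases long with 978 coding bases, rests on the length used: per kb of coding sequence Cdk6 ranked by mean 5 in WT_PRO (66.2 CPM per kb) and 3 in WT_DIFF (73.6 CPM per kb), above Ccnd3 and both E cyclins in each. On that scale the WT_PRO replicates of Cdk6 (47.3, 65.2 and 86.2) overlapped those of Ccnd3 (71.3, 54.6 and 59.5) and of Cdk2. Ccnd1 was the first of the 8 transcripts in neurospheres and the fourth at 2 + 1 DIV with either length. In these bulk samples fewer cells of a type and less RNA per cell cannot be told apart.

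The genotype comparison asks whether transcripts of these cyclins and kinases, whose protein complexes p27 binds, differ between p27KO and WT. In neurospheres edgeR called 0 of the 8 genes, where it called 0.0156% of all genes higher and 0% lower in p27KO. No one of the 8 had an unadjusted p under 0.05, and DESeq2 also called 0 of them. The log2 differences between p27KO and WT ran from -0.27 for Cdk6 (95% interval -0.82 to 0.29) to 0.16 for Ccne2 (-0.23 to 0.55). For Cdk2 the interval was -0.22 to 0.20 and for Cdk4 -0.35 to 0.20, and Ccnd2, whose 2 p27KO_PRO libraries lay below the 3 WT_PRO libraries, differed by -0.25 (-0.68 to 0.17). All 8 adjusted p-values were 1.00 after rounding.

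At 2 + 1 DIV edgeR again called 0 of the 8 genes, and DESeq2 called 0. Markers of neuroblasts and neurons summed to 1995 to 2126 CPM in p27KO_DIFF and 1464 to 1710 CPM in WT_DIFF. Most of that sum was Map2, with means of 2016 and 1531 CPM. The other means were not higher in p27KO_DIFF: Dcx 34.2 and 35.2 CPM, Tubb3 7.89 and 8.29, Rbfox3 1.75 and 3.53, Stmn2 0.0198 and 0.0571. Endothelial and mural markers summed to 5.00 to 10.4 CPM and 2.75 to 4.39 CPM, mostly Pdgfrb (means 6.96 and 2.98 CPM). The part of these markers in the genotype values was not tested. Over all genes 1.91% were called higher and 0.124% lower in p27KO, and a count of 0 in 8 is near that background. The gene with the largest difference was Ccne2, the only one with an unadjusted p under 0.05 among the 8. Both p27KO_DIFF libraries, at 11.1 and 11.4 CPM, lay above the 3 WT_DIFF libraries at 5.65 to 8.75 CPM, and the log2 difference was 0.59 (SE 0.19, 95% interval 0.17 to 1.01, edgeR unadjusted p = 0.0108, adjusted p = 0.179). Without replicate 1 of WT_DIFF, the lowest library for Ccne2, the difference was 0.42 (edgeR, adjusted p = 0.336). Over the 18 alternative fits the difference for Ccne2 ran from 0.42 to 0.73. Its companion Ccne1 differed by 0.00 (interval -0.49 to 0.49). Ccnd1 differed by -0.20 (-0.58 to 0.19), Ccnd2 by 0.11 (-0.31 to 0.53), Ccnd3 by -0.13 (-0.42 to 0.15), Cdk2 by -0.04 (-0.26 to 0.18), Cdk4 by -0.17 (-0.44 to 0.11) and Cdk6 by 0.02 (-0.52 to 0.57). Of these intervals those of Cdk2 and Cdk4 were the narrowest and that of Cdk6 the widest.

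**Figure D4:**
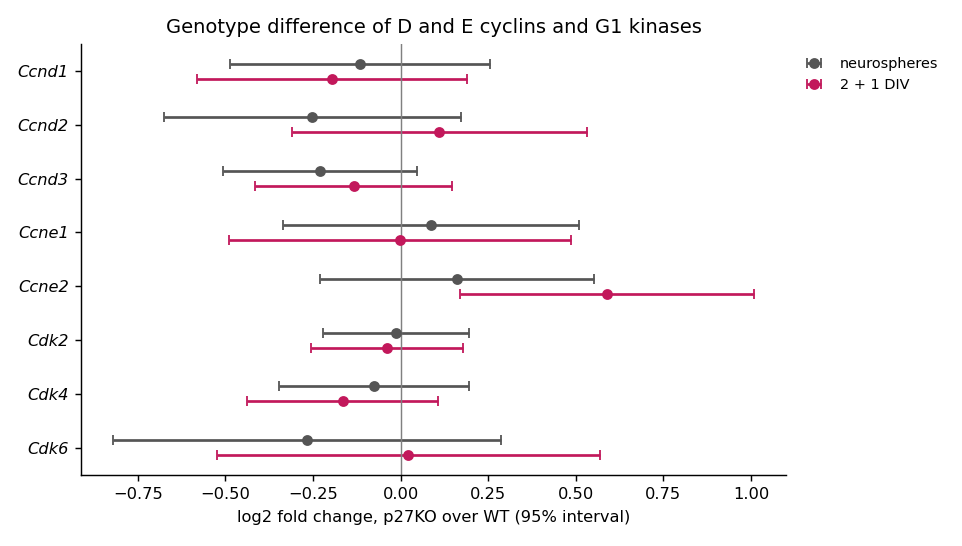
Log2 difference between p27KO and WT for each gene in neurospheres (grey) and at 2 + 1 DIV (magenta), with 95% intervals from the edgeR fit. Every interval crosses the line of no difference except that of Ccne2 at 2 + 1 DIV, which runs from 0.17 to 1.01 and did not pass the test after adjustment over all genes.

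The difference between the 2 stage changes was tested as a genotype by stage interaction. edgeR called 0 of the 8 genes, DESeq2 called 0, and no unadjusted p was under 0.05; over all genes 0.389% were called positive and 0% negative. The largest interaction values were 0.43 for Ccne2 (95% interval -0.15 to 1.01), 0.36 for Ccnd2 (-0.23 to 0.96) and 0.29 for Cdk6 (-0.49 to 1.06). A positive value means that the log2 change over stages was higher in p27KO than in WT. For Ccnd1 the value was -0.08 (-0.61 to 0.45), beside stage changes of -5.89 and -5.97.

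The genes around this step were read from lists of the pathway. Among mitogen-responsive transcription factors, upstream of the D cyclins, 8 of 11 tested fell and 3 rose in each genotype. In WT the immediate early factor Egr1 (log2 fold change -4.71) and Etv5 (-3.37), a target of FGF signalling, fell furthest, while Id1 (3.29) and Id3 (2.29), inhibitors of bHLH factors, rose. Of the 7 CDK inhibitors 3 rose and 3 fell in WT, among them Cdkn1c, encoding p57 (2.82), and Cdkn1b (0.94), which rose, and Cdkn1a, encoding p21 (-2.30), and Cdkn2d (-1.29), which fell. In p27KO 2 rose, Cdkn1c (2.47) and Cdkn1b (0.42), the gene mutated in these cells, and 3 fell. The pocket proteins, the substrates of these kinases, split: Rb1 (1.02) and Rbl2 (0.84), which encodes p130 of quiescent cells, rose in WT, and Rbl1, which encodes p107 of cycling cells, fell by 1.87. They moved the same way in p27KO, with log2 fold changes of 1.09, 0.88 and -1.35. Of 10 E2F and DP factors 8 fell and 1 rose in WT, with E2f7 (-4.96) and E2f2 (-4.56) furthest down and Tfdp2 (0.46) up, and in p27KO 7 fell and 2 rose.

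Of the listed G1/S targets of E2F, 18 of 18 fell in WT (median log2 fold change -3.40) and 18 of 18 fell in p27KO (median -2.91). Cdc6 (-5.78) and Cdt1 (-5.11), which license replication origins, were furthest down in WT. The 5 tested S and M phase cyclins and Cdk1 all fell in both genotypes, with medians of -3.41 and -1.85; Cdk1 (-3.60) and Ccna2 (-3.57) led in WT. A list of 8 genes held the CDK activating kinase, the CDC25 phosphatases and the kinases Wee1 and Pkmyt1, which inhibit CDKs: 5 fell and 1 rose in WT and 4 fell and 1 rose in p27KO. Both inhibitory kinases fell in WT (Pkmyt1 -3.24, Wee1 -2.51), as did the activating phosphatases Cdc25c (-3.21) and Cdc25a (-1.89) and, of the activating kinase, Ccnh (-0.35), while Cdk7 (0.46) rose; Wee1, Cdc25a and Ccnh were named after their values were seen. Of 12 genes for turnover of D and E cyclins and p27, 5 fell and 2 rose in WT and 4 fell and 0 rose in p27KO. Cks2 (-2.88) and Cks1b (-2.84), small partners of CDKs, were furthest down in WT, while Skp1a (0.42) and Ambra1 (0.30), an adaptor in D cyclin degradation, were the 2 that rose. In WT 8 of 14 other cyclins and 6 of 12 other CDKs did not pass the test. Of 14 other cyclins 3 rose, led by Ccng2 (1.00) and Ccnt2 (0.79), and 3 fell, led by Ccnjl (-1.69) and Ccnyl1 (-0.92), in WT. Of 12 other CDKs 3 rose, led by Cdk20 (1.28) and Cdk19 (0.99), and 3 fell, led by Cdk8 (-0.54) and Cdk9 (-0.49). In p27KO the counts were 4 up and 2 down for other cyclins and 2 up and 3 down for other CDKs.

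At 2 + 1 DIV the lists of G1/S targets and of S and M phase cyclins gave other counts than the 8 genes in p27KO against WT. Of the 18 G1/S targets of E2F 12 were called higher in p27KO (median 0.87), with Cdc6 (1.98) and Rrm2 (1.65) the largest, and of the 5 S and M phase cyclins and Cdk1 4 were called higher (median 1.43), with Ccna2 (1.74) and Ccnb1 (1.47) the largest. The 8 genes had a median of -0.02, and all genes tested a median of -0.01. Those list counts rest on the pooled spread of the 10 libraries: fitted on the 5 libraries at 2 + 1 DIV alone they were 2 of 18 and 0 of 5, and without replicate 2 of p27KO_DIFF 3 of 18 and 2 of 5, and without replicate 1 of it 7 of 18 and 1 of 5. In the test of the interaction itself 2 of the 18 and 1 of the 5 were called; DESeq2 called 4 of each, the replicate block gave 2 of each, and without replicate 2 of WT_DIFF 2 of the 18 and 4 of the 5 were called, but 0 of each when any 1 of both p27KO_DIFF libraries, both p27KO_PRO libraries or WT_PRO replicates 2 and 3 was left out. Of the other lists, E2F and DP factors had 3 called higher, led by E2f7 (2.56) and E2f8 (1.66), the list of CDK activating and inhibiting enzymes 2, the phosphatase Cdc25c (1.76) and the inhibitory kinase Wee1 (0.92), the pocket proteins 1, Rbl1 (0.75), and the turnover list 1, Cks2 (1.22). Fitted on the 5 libraries at 2 + 1 DIV alone, these 4 counts were 1, 0, 0 and 0. Without replicate 1 of p27KO_DIFF they were 3, 0, 0 and 0, and without replicate 2 of it 3, 1, 1 and 0; the turnover count was also 0 without any 1 of the 5 neurosphere libraries, and 3 with the replicate block and with DESeq2. Cdkn1b was the one CDK inhibitor called, lower by 0.56 on the log2 scale than in WT (edgeR, adjusted p = 0.0120). Without either p27KO_DIFF library 0 CDK inhibitors were called lower, and DESeq2 called 2 lower and 1 higher. The edgeR fit to 4 groups called 0 mitogen-responsive factors, other cyclins and other CDKs. With the replicate block, with DESeq2 and without replicate 3 of WT_DIFF 1 mitogen-responsive factor was called lower, and with DESeq2 and without replicate 1 of WT_DIFF 1 other cyclin was called higher.

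**Figure D5:**
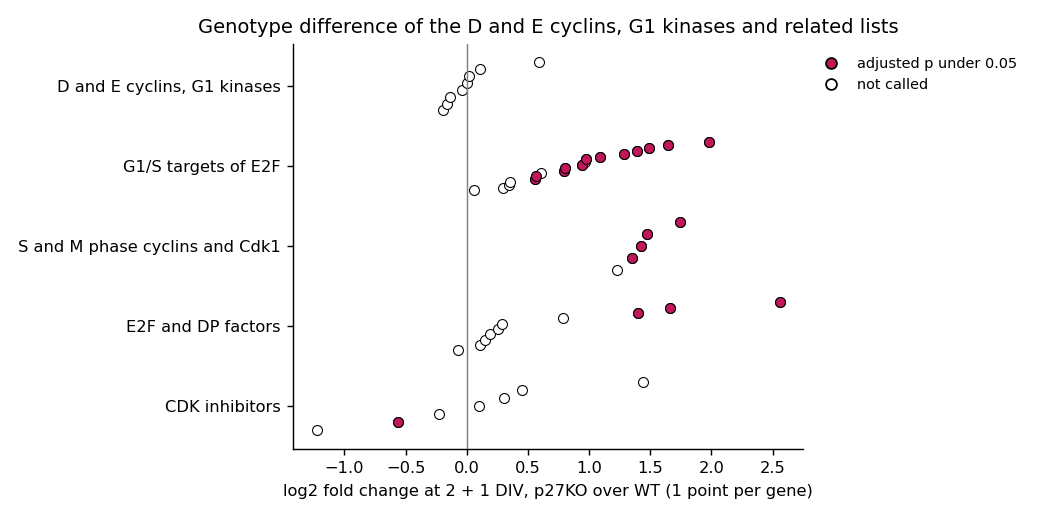
Log2 difference between p27KO and WT at 2 + 1 DIV for the 8 D and E cyclins and G1 kinases and for the genes of 4 lists. Each point is 1 gene, and filled points had an adjusted p under 0.05 (edgeR); 0 of the 8, 12 of 18 G1/S targets of E2F and 4 of 5 S and M phase cyclins with Cdk1 are filled.

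Patterns over the 10 libraries were compared by the root mean square difference of log2 CPM after centring each gene on its own mean, a description over libraries that share their stage and depth. The genes nearest to Ccnd1 were Tagln2 (0.38), Itga4 (0.47) and Spry4 (0.54), an inhibitor of receptor tyrosine kinase signalling. Those nearest to Ccne2 were Fen1 (0.17), Dut (0.17) and Pcna (0.17), 3 DNA replication and repair genes, whereas those nearest to Ccne1 were Prr5l (0.15), Synj2 (0.15) and Jun (0.17). The 2 E cyclins were 0.49 apart from each other. For Cdk4 the nearest were Rack1 (0.06), Farsa (0.06) and Rpl18 (0.07), genes of ribosomes and translation, and for Cdk2 Ifrd1 (0.09), Lrrc59 (0.09) and Nop2 (0.09). For Ccnd2 they were Med18 (0.11), 1810009A15Rik (0.14) and Mrpl42 (0.14), for Ccnd3 Dcaf15 (0.07), Ddx54 (0.08) and Wdr83os (0.08), and for Cdk6 Insr (0.15), Atg4a (0.15) and Zfp940 (0.17). Among the 8 genes the closest pair was Ccnd3 and Cdk4, at 0.11.

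Promoter sequences were available from RefSeq (GRCm38.p6) for 5 of the 8 genes, in 6 windows, and the 250 bases upstream of each start were searched on both strands for the E-box CACGTG, bound by Myc and Max, the GC box GGGCGG, bound by Sp1, and the E2F letters TTTCGCGC, TTTGGCGC, TTTCCCGC and TTTGCCGC. A set is shown for 3 genes whose transcripts fell, with the matches in capitals, each 5′ to 3′ on the strand of the gene. Cdk4 (chr10:127063285-127063533, plus strand) shows 4 E-boxes, Cdk2 (chr10:128705173-128705202, minus strand) the 30 bases around its one E2F match, and Ccne1 (chr7:38107535-38107740, minus strand) GC boxes.
Cdk4: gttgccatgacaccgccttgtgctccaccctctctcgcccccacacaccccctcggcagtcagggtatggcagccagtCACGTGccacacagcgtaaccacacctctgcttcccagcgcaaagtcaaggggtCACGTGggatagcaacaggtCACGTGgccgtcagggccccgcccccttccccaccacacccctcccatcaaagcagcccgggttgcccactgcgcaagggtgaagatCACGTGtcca
Cdk2: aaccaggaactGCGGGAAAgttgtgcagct
Ccne1: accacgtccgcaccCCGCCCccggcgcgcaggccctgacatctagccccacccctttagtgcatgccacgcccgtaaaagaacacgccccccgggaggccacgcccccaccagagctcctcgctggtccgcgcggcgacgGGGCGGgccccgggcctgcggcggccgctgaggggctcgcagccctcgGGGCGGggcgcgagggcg
The 4 E-boxes of Cdk4 begin 172, 118, 98 and 11 bases before the start. Of 32851 promoter windows of that length 6.02% hold 1 or more of this E-box and 7 (0.0213%) hold 4 or more. The Cdk2 match, the reverse complement of TTTCCCGC, begins 140 bases before the start, and 1.86% of windows hold 1 or more of the E2F letters. Ccne1 has 4 GC boxes in its window, 3 of them in the stretch shown, and no match to the E2F letters. Cdk2 has 5 GC boxes in its window, Cdk4 has 1 and the Ccnd3 windows have 2 and 1, where 32.7% of windows hold 1 or more and 4.09% hold 4 or more. Cdk6 has 1 E-box and no E2F match, and neither Ccnd3 window has an E-box or an E2F match. The CRE TGACGTCA (in 1.55% of windows), the AP-1 letters TGACTCA and TGAGTCA (4.46%) and the CHR TTTGAA (15.99%) were searched too, with no match in the 6 windows. A match describes the letters of these windows and no binding was measured here.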

How the data were processed

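RNA-seq of 10 libraries was analysed. Per the study's methods, reads were aligned with STAR to the Ensembl mouse transcriptome and counted with RSEM. The submitters' processing notes also name FastQC, cutadapt, Trimmomatic and the builds GRCm38 and mm10, without their role. The authors deposited estimated counts per gene as whole numbers; versions and the strand setting are not given in the sources used here. The deposited expected counts were tested as they stand. A gene was dropped when 4 or more of the 10 libraries had it under 1 CPM, the study's own filter, leaving 12859 of 48795. edgeR 4.0.16 (R 4.3.3) with TMM factors, robust dispersion and the quasi-likelihood F test was fitted to 4 groups; tests were two-sided, with Benjamini-Hochberg adjustment over all genes tested and a threshold of 0.05. Intervals are 95% intervals from that fit. DESeq2 1.42.0, the study's tool, was an alternative, with other scalings, filters, samples, a replicate block and each library left out.

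Ccne1 and Ccne2 rest on 81 to 287 counts a library at 2 + 1 DIV. Deviations from group means of same-numbered WT libraries correlated at 0.248, 0.301 and 0.395, and of differently numbered ones at -0.221 to -0.0874. Centring on group means ties these values together, so they do not settle whether numbers pair neurospheres with attached cells. For p27KO the same-numbered value was -0.138. The main fit used no pairing. No 2 replicates agreed within sampling noise. Lengths come from GENCODE M21, sequences from RefSeq. On counts simulated for the WT stage change, edgeR recovered 54 of 66 genes changed by 1 log2 unit and 61 of 67 changed by 2, and called 5 of 12659 unchanged genes. The simulation left 12659 of 12859 genes unchanged, whereas 8667 were called in the measured WT stage change. It therefore does not show recovery or false calls where so many genes change. The text names all 8 genes, whatever their values, from the lists the 2 highest and 2 lowest called in WT over stages and between genotypes at 2 + 1 DIV (every gene of a list of up to 3), and for each of the 8 its 3 nearest genes. The 8 genes and the lists were chosen with earlier results of these data known.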

Additional observations from a re-analysis of the deposited data

How the results depend on the processing

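The stage calls of Ccnd1, Ccnd2, Ccnd3, Ccne1, Ccne2, Cdk2 and Cdk4 kept their direction and stayed past the threshold in 18 of 18 alternatives in each genotype, and 0 of the 8 genes was called between genotypes or in the interaction under any alternative run. Fitting the interaction on only the groups compared was not run, since it needs all 4 groups. In the fit on only the p27KO libraries 1 of the 8 genes, Cdk6, was called up over stages. The replicate block changed no call of the 8 genes; under it Cdk2 in neurospheres differed between genotypes by 0.0129, of opposite sign to the reported value, and likewise by 0.0129 with the p27KO numbers crossed, a pairing added after seeing the data, under which 0 of the 8 were called between genotypes. Ccne1 at 2 + 1 DIV, reported at 0.00, was 0.0160 with DESeq2 size factors, 0.0177 with DESeq2, 0.0176 with no filter and 0.00129 with the other reading of the filter, each positive.

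Leaving out each library in turn, values that lie near 0 changed sign. The WT stage change of Cdk6 ran from -0.0444 to 0.38. The genotype difference in neurospheres ran from -0.0535 to 0.35 for Ccne2 and from -0.0409 to 0.0391 for Cdk2. At 2 + 1 DIV it ran from -0.0821 to 0.28 for Ccnd2, -0.13 to 0.23 for Ccne1, -0.10 to 0.0239 for Cdk2 and -0.13 to 0.19 for Cdk6. The interaction ran from -0.23 to 0.11 for Ccnd1, -0.0217 to 0.21 for Ccnd3, -0.23 to 0.15 for Ccne1, -0.0898 to 0.0363 for Cdk2 and -0.18 to 0.00478 for Cdk4. None of these values was called.

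Shares moved with the length used. Without division by length, and with coding length in its place, the share of Ccnd1 in D cyclins was 52.1 and 51.6% in WT_PRO, 4.39 and 4.31% in WT_DIFF, 54.5 and 54.0% in p27KO_PRO and 3.34 and 3.27% in p27KO_DIFF. For Ccnd2 it was 46.7 and 47.2% in WT_PRO, 92.7 and 92.8% in WT_DIFF, 44.4 and 44.9% in p27KO_PRO and 94.3 and 94.4% in p27KO_DIFF. For Ccnd3 it was 1.18 and 1.18% in WT_PRO, 2.90 and 2.88% in WT_DIFF, 1.14 and 1.14% in p27KO_PRO and 2.37 and 2.35% in p27KO_DIFF. The share of Cdk4 in Cdk4 plus Cdk6 was 87.0 and 87.8% in WT_PRO, 75.7 and 77.0% in WT_DIFF, 88.5 and 89.2% in p27KO_PRO and 73.4 and 74.8% in p27KO_DIFF. The share of Ccne1 in E cyclins was 39.6 and 39.3% in WT_PRO, 34.7 and 34.5% in WT_DIFF, 38.7 and 38.5% in p27KO_PRO and 25.6 and 25.4% in p27KO_DIFF. The direction of each change between stages stayed the same. The level order with coding length was added after seeing the data; it moved Cdk6 from rank 8 to 5 in both neurosphere groups and from 6 to 3 in both groups at 2 + 1 DIV.

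Counts over all genes differed by more than 1.5 times between edgeR and DESeq2 for the genotype difference in neurospheres (2 and 40), at 2 + 1 DIV (262 and 629) and for the interaction (50 and 156).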

Other observations

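Mki67, a marker of cycling cells, was at 842 ± 55.4 CPM (SD, n = 3) in WT_PRO and 97.4 ± 26.4 CPM in WT_DIFF, and at 922 ± 45.9 CPM (n = 2) in p27KO_PRO and 337 ± 33.4 CPM in p27KO_DIFF. The p27KO_DIFF libraries, at 313 and 360 CPM, lay above the WT_DIFF libraries, at 67.6 to 118 CPM. In the same attached libraries the summed E cyclins were at 5.67 CPM per kb in p27KO_DIFF and 4.32 to 4.59 in WT_DIFF. Mean Ccne1 was at 1.93 and 1.97 CPM per kb, so the gap lay with Ccne2, at 3.74 and 2.49. Ccne2 was not called between genotypes at 2 + 1 DIV (edgeR, adjusted p = 0.179), and the sum was not tested. Gfap, an astrocyte filament protein, was at 0.613 CPM in WT_PRO and 111 CPM in WT_DIFF. Nes, a filament protein of neural progenitors, was at 1732 CPM in WT_PRO and 195 CPM in WT_DIFF.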
